A study of Mus musculus with 36 samples.

Results

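Mouse intestinal organoids, epithelial cultures started in Matrigel from jejunal crypts, were compared after culture with Wnt5a + anti-Ptk7 and after culture in complete media + IgG. The treatment label chose the members, 6 libraries of each condition, which are 12 of the 36 libraries of the series. All organoids came from C57BL/6 mice, and every culture received an antibody, either anti-Ptk7 or a control IgG. Complete media was Intesticult, a commercial growth medium, and Wnt5a was supplied in it. The antibody in complete media without the ligand was not analysed here, so ligand and antibody came together in the comparison and cannot be told apart within it. Libraries of Wnt5a + IgG, of QCM + IgG (medium conditioned by quiescent fibroblasts), and of SCM + IgG and SCM + anti-Ptk7 (medium conditioned by senescent fibroblasts) were used to look at the same genes with the ligand and no anti-Ptk7, and with anti-Ptk7 and no added ligand. The crypts came from 6 mice, and neither the mouse behind each replicate number nor its age is given in the sources used here, so p-values measure the spread between these libraries, which may be technical in part.

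Wnt5a is a secreted ligand of the noncanonical Wnt branch, which works without β-catenin through Frizzled receptors and acts on the cytoskeleton, migration and planar polarity. Ptk7 is a transmembrane protein with an inactive kinase domain that takes part in this branch as a co-receptor. YAP and TAZ are transcriptional coactivators that bind DNA through TEAD factors, and in the intestinal epithelium their targets overlap with the fetal-type genes that crypt cells express during repair. The comparison asks which transcripts differ from control cultures when the ligand is given while Ptk7 is bound by the antibody.

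The 12 libraries held between 9581589 and 15726081 counts. Defining markers of other cell types were at or near 0: Ptprc, Cdh5, Dcn and Des had no count in any of the 12 libraries, and the 8 fibroblast markers summed to 4.07 to 7.93 CPM (counts per 1000000 counts of the library) in complete media and 5.16 to 8.95 CPM with Wnt5a + anti-Ptk7. The 7 immune markers summed to 14.1 to 19.1 and 16.4 to 20.7 CPM, mostly Csf1r, the 5 endothelial markers to at most 1.91 CPM, and the 6 smooth muscle and glia markers to at most 2.49 CPM. The 10 epithelial markers summed to 10800 to 13900 CPM and 16400 to 33700 CPM, and 6 of them were called higher. Genes with at least 1 count numbered 17707 to 18975 in complete media and 19087 to 20350 with Wnt5a + anti-Ptk7, and protein-coding genes held 96.3% to 96.5% and 96.6% to 97.2% of the counts, so neither measure overlapped between the conditions. Their part in the results was not tested. The libraries numbered 1 and 5 were the highest on the first principal component (21.5% of the variance) in every one of the 6 conditions. The counts of raised and lowered genes and of some gene lists, not all, are given below without them as well. That choice was made after the values were seen. In bulk RNA, fewer cells of a type and less RNA per cell cannot be told apart.

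The ligand and the antibody were added as proteins, so their transcripts do not check the labels. Wnt5a transcript was too low to be tested, with 25 counts over the 6 libraries of Wnt5a + anti-Ptk7 and 13 over those of complete media. Ptk7 transcript was at 9.15, 11.3 and 14.1 CPM in the lowest, the median and the highest of the 6 libraries of complete media + IgG, and at 16.2, 17.5 and 25.4 CPM with Wnt5a + anti-Ptk7, without overlap (log2 fold change 0.74 ± 0.25, adjusted p = 0.0223), a call that was lost without complete media replicate 4 or without replicate 1 or 2 of Wnt5a + anti-Ptk7. Levels below are CPM after TMM scaling and are given in that order, and values in brackets after a gene are log2 fold changes ± SE. Among the other receptors of the branch, Fzd2 rose by 0.73 and the polarity gene Vangl1 by 1.02 on the log2 scale, and Fzd5 fell by 0.68. The co-receptors Ror2 (−0.11 ± 0.15) and Ryk (−0.33 ± 0.18) and the receptor Fzd7 (−0.40 ± 0.22) did not pass the test. In all, 3 of 24 tested genes of the noncanonical Wnt and polarity list were called higher and 1 lower, close to the 10.5% and 3.96% of all genes tested.

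Of the 15497 genes tested with the quasi-likelihood test of edgeR, 1630 were higher with Wnt5a + anti-Ptk7 (10.5% of all tested) and 613 were lower (3.96%) (threshold of 0.05 on the adjusted p, with at least a 1.5-fold difference). Together they made 14.5% of all genes tested. Libraries of the 2 conditions did not overlap for 928 of the raised and 399 of the lowered genes, against 16.3% of all genes tested. The raised genes moved further, the median of their log2 fold changes being 1.11 and 933 (57.2%) lying over 2-fold, against a median of −0.76 and 151 (24.6%) over 2-fold for the lowered genes. The split depended on the scaling, since quantile-normalized values with voom and limma gave 1229 higher and 1120 lower genes, or 52.3% of calls higher against 72.7%, and moved the median log2 fold change of all genes from 0.0239 to −0.0752. Of the lowered genes, 99% were lower there as well, and 73.9% of the raised genes were higher there. Without the libraries numbered 1 and 5, the counts were 1111 and 421. Processed pseudogenes made up 9.79% of the lowered genes, 1.41% of the raised genes and 6.94% of all genes tested. For comparison, Wnt5a + IgG against the same complete media libraries gave 1285 higher (8.29%) and 291 lower genes (1.88%), while Wnt5a + anti-Ptk7 against Wnt5a + IgG gave 70 higher (0.452%) and 67 lower (0.432%), 0.884% of genes in all. These comparisons share libraries with the main one and are set side by side only. Their counts were not repeated with the replicate block or under any other alternative.

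The raised set held genes of fetal and regenerating epithelium and of the stomach. Clu, which encodes the secreted chaperone clusterin and marks revival stem cells (chromosome 14, 65968483 to 65981547, GRCm38), was at 19.8, 41.9 and 101 CPM in complete media + IgG and at 1684, 2258 and 7042 CPM with Wnt5a + anti-Ptk7. Every treated library lay far above the highest control library, and the fitted difference was 63-fold (log2 5.98 ± 0.50, adjusted p = 4.63e-11). Ctse, which encodes the gastric protease cathepsin E, was close to absent from the control libraries at 0, 0 and 1.09 CPM and reached 39, 60.1 and 235 CPM in the treated ones. The fitted log2 fold change of 8.72 ± 0.91 rests on 16 control counts in all. Of 19 tested members of the list of fetal and revival genes, 14 were called higher and none lower (14 of 19 also without the libraries numbered 1 and 5), and the median log2 fold change was 1.5 against 0.0239 for all genes. Their summed level had a median of 2864 CPM in the controls and 9458 CPM in the treated libraries. Among them were the tight-junction adhesion gene Vsig1 (3.40 ± 0.40), Emp1 (2.24 ± 0.27), the calcium-binding S100a6 (1.86 ± 0.35), the membrane-binding annexins Anxa2 (1.81 ± 0.34) and Anxa1 (1.41 ± 0.38), the interleukin-1 receptor antagonist Il1rn (1.62 ± 0.38) and the EGFR ligand Areg (1.22 ± 0.31). Ly6a, the gene of the fetal marker Sca1, did not pass (log2 fold change −0.68 ± 0.29, or −0.87 with an adjusted p of 0.0291 without Wnt5a + anti-Ptk7 replicate 1 and −0.84 with 0.0257 without complete media replicate 3), and its level was 56.1, 115 and 228 CPM in the controls and 64.8, 73 and 129 CPM in the treated libraries. Of 15 gastric-type genes listed, 7 passed the count filter, which a gene can pass through the conditions where it is high. Of these 7, 6 were higher, among them the stomach genes Gkn3 (2.77 ± 0.26) and Tff1 (3.34 ± 0.84). This share depends on the filter in part and is a description only.

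**Figure D1:**
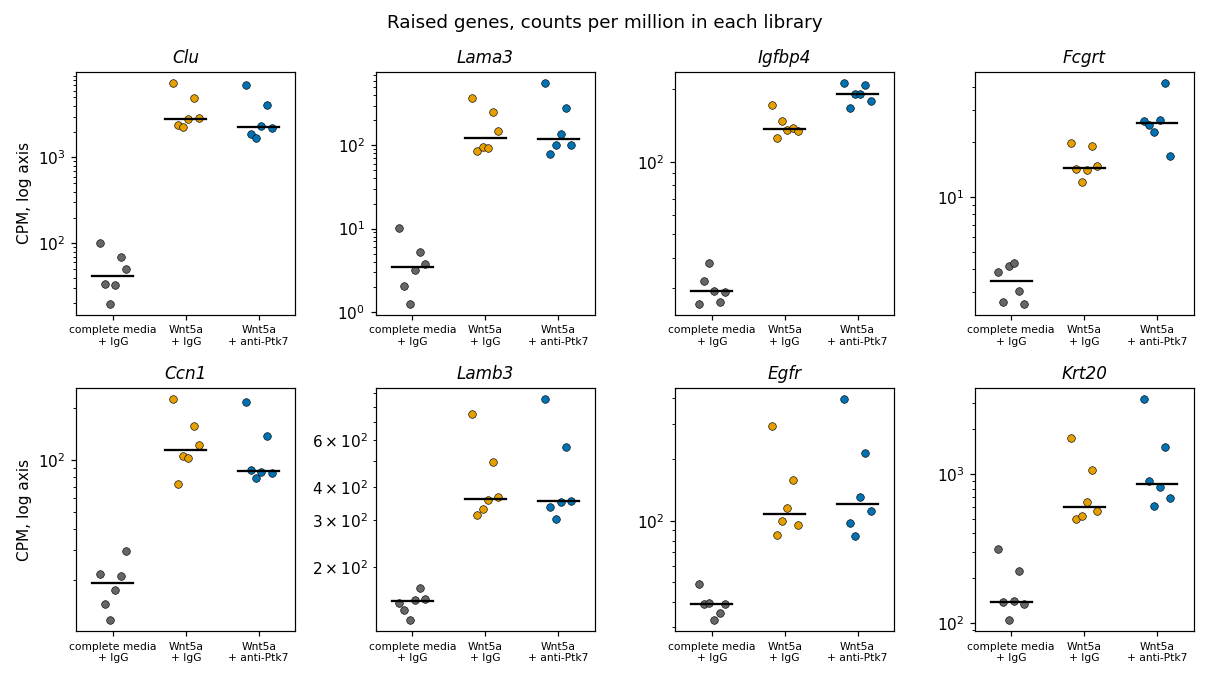
Level in CPM on a log axis for 8 raised genes in the 6 libraries each of complete media + IgG (grey), Wnt5a + IgG (orange) and Wnt5a + anti-Ptk7 (blue), with each point a library and the bar the median of its condition. All treated libraries lie above all control libraries for each gene, and the Clu medians of 41.9, 2837 and 2258 CPM show both ligand conditions far above the control.

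Most YAP/TAZ targets were higher as well, 13 of 18 tested with none lower and a median log2 fold change of 1.28 (9 of 18 without the libraries numbered 1 and 5). Ccn1, a matricellular protein gene and a widely used YAP target, was at 11.8, 19.3 and 29.8 CPM in the control and at 78.6, 86.7 and 217 CPM in the treated libraries, which did not overlap (5.91-fold, log2 2.56 ± 0.29, adjusted p = 2.88e-08). F3, the gene of tissue factor, rose by 3.66 ± 0.45 and Myof, a membrane repair gene, by 2.24 ± 0.39 on the log2 scale. Ccn2, the gene most often paired with Ccn1 as a YAP readout, was at 1.75, 8.57 and 22.2 CPM and 13.4, 19.1 and 56.3 CPM, which overlapped (log2 1.35 ± 0.51, adjusted p = 0.0391). Its call was lost when any of 6 libraries was left out, namely complete media replicates 2, 3, 4 and 6 and Wnt5a + anti-Ptk7 replicates 1 and 5. TEAD factors bind the letters GGAATG, which were searched on both strands of the 250 bases before the RefSeq start (GRCm38.p6) of the 10482 of 15479 tested gene symbols that matched a RefSeq promoter. They occurred in 13% of these promoters, in 15.2% of the raised genes', in 5 of the 12 matched promoters of the YAP/TAZ targets, and in 2 of the 9 among them whose genes were called. Amotl2, which encodes a partner of YAP, rose by 0.75 ± 0.24, and lost its call without complete media replicate 2 or Wnt5a + anti-Ptk7 replicate 1. The promoters of Ccn1 (chr3:145649986-145650235, minus strand) and Amotl2 (chr9:102717554-102717803, plus strand) are printed 5′ to 3′ on the gene's strand to show where the letters lie, in capitals, 103 and 65 bases before the start.
Ccn1: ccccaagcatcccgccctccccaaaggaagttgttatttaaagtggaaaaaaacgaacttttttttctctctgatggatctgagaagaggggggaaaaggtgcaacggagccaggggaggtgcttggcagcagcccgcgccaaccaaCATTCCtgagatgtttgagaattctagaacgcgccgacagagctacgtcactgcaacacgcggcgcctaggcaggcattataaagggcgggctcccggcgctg
Amotl2: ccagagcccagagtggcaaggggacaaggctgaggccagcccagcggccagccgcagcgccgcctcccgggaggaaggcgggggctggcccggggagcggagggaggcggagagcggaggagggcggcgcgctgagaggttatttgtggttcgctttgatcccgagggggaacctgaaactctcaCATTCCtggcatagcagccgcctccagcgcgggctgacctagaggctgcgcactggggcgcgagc

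Genes of the basement membrane and its receptors rose together, 13 of 19 tested laminins and integrins against 1 lower, with a median log2 fold change of 1.13 (10 higher without the libraries numbered 1 and 5). Lama3, a laminin α chain gene of the epithelial basement membrane, was at 1.25, 3.46 and 10.2 CPM in the controls and at 78.1, 118 and 562 CPM in the treated libraries. Lamb3, a laminin β chain gene, was at 127, 149 and 167 CPM and 303, 354 and 855 CPM. Neither overlapped between the conditions (log2 5.63 ± 0.59 and 1.65 ± 0.20). The epithelial integrin genes Itgb6 (1.96 ± 0.28) and Itgb4 (1.39 ± 0.25), whose products bind matrix and laminin, were raised as well. The member that fell was Ntn4 (−1.64 ± 0.38), a netrin gene whose product disrupts laminin networks. Actomyosin genes were higher in 12 of 24 (7 without Wnt5a + anti-Ptk7 replicate 1), including the tropomyosin gene Tpm2 (2.57 ± 0.55). Keratins, chosen as a family after values were seen, were higher in 10 of 18, and their summed level had a median of 5983 CPM in the controls and 12490 CPM in the treated libraries. Krt20, a keratin of differentiated villus cells, was at 105, 139 and 315 CPM in the controls and at 613, 860.5 and 3186 CPM in the treated libraries (7.32-fold), while Krt8 and Krt18 rose by 1.28 ± 0.22 and 1.36 ± 0.23 on the log2 scale. Of the squamous and stratified genes 7 of 13 were higher, the desmosomal cadherin Dsg3 among them (2.91 ± 0.65), and 7 of 11 annexins and 7 of 11 S100 proteins, families also chosen after values were seen, were higher.

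Growth factor and cytokine genes followed. Egfr, the receptor of epidermal growth factor, was at 32.6, 39 and 49.1 CPM in complete media + IgG and at 84.3, 121 and 395 CPM with Wnt5a + anti-Ptk7 (4.41-fold, log2 2.14 ± 0.31). Among ligands of the family, Btc (1.07 ± 0.20), Hbegf (0.98 ± 0.22) and Tgfa (0.91 ± 0.19) were raised too. In the EGFR family list 5 of 13 members were called higher (38.5%, beside 10.5% of all genes tested) and none lower. Of the 13, 2 lay below 0, the lowest at a log2 fold change of −1.69. Chemokines and cytokines were higher in 11 of 17 (median log2 fold change 1.40). They included the macrophage growth factor Csf1 (2.77 ± 0.52), Tnf (1.89 ± 0.31) and the epithelial cytokine Il18 (1.28 ± 0.25). Of the AP-1 and immediate early genes 8 of 17 were higher (4 without Wnt5a + anti-Ptk7 replicate 1), with Fos at 2.16 ± 0.36 and Jun at 1.03 ± 0.16. Canonical Wnt targets were higher in 8 of 17 and lower in none, a count that fell to 2 higher and 1 lower without the libraries numbered 1 and 5. Cd44 (1.23 ± 0.19) and the feedback ligase gene Rnf43 (0.76 ± 0.13) were among them. Axin2, a feedback gene of the canonical branch, had a log2 fold change of −0.57 ± 0.17 (adjusted p = 0.0107), short of the fold threshold, and was called lower when any of 5 libraries was left out (complete media replicates 2, 3 and 4, or Wnt5a + anti-Ptk7 replicates 2 and 6, −0.68 to −0.60). Lgr5, the marker of crypt base stem cells, did not pass at 138, 204 and 292 CPM and 116, 157 and 168 CPM (log2 −0.48 ± 0.22, adjusted p = 0.0901). The growth factor gene Tgfb1 (2.99 ± 0.32) and the inhibitor gene Smad7 (2.61 ± 0.35) rose, and Bmp7 fell by 0.96 on the log2 scale. Tuft genes were higher in 4 of 9, with the cytoskeletal Avil at 2.58 ± 0.31 and the cyclooxygenase Ptgs1 at 3.83 ± 0.69.

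The 5 raised genes with the smallest p-values were Igfbp4, Blvrb, Lypd8, Slc34a2 and Fcgrt. Igfbp4, which encodes a binding protein of insulin-like growth factors, was at 25.8, 29 and 38 CPM and 167, 191 and 213 CPM (6.39-fold, log2 2.68 ± 0.14, adjusted p = 4.24e-16). Blvrb, a biliverdin reductase gene, was at 22.5, 27.7 and 31 CPM and 112, 133 and 182 CPM. The phosphate transporter gene Slc34a2 was at 9.42, 12.7 and 16.6 CPM and 49.9, 68.6 and 87.1 CPM. For each of them the lowest treated library lay above the highest control library. Fcgrt, the neonatal Fc receptor that carries IgG across epithelia, was at 2.59, 3.45 and 4.32 CPM in the controls and at 16.8, 25.5 and 42.3 CPM in the treated libraries (log2 2.95 ± 0.20). Lypd8, a secreted protein that keeps flagellated bacteria off the epithelium, rose from 222, 249 and 261 CPM to 504, 639 and 781 CPM.

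**Figure D2:**
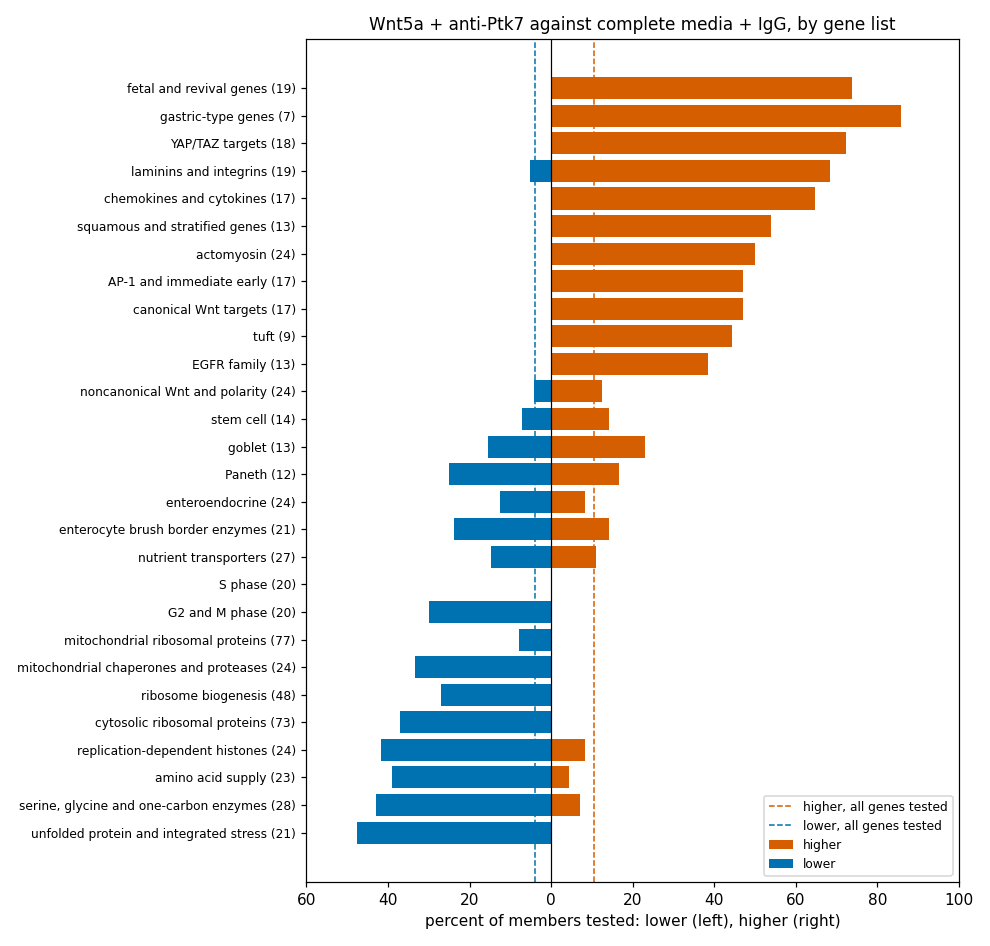
Share of the tested members of each gene list called lower (blue, to the left) and higher (orange, to the right) with Wnt5a + anti-Ptk7 against complete media + IgG, in percent, with the number tested in brackets. The dashed lines mark the shares of all genes tested, 3.96% lower and 10.5% higher, and the upper lists extend to the right of theirs while the lists of protein folding, amino acid and ribosome genes extend to the left.

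The lowered genes held enzymes and transporters of amino acid supply and chaperones of the endoplasmic reticulum. Of 21 genes of the unfolded protein and integrated stress list, 10 were called lower and none higher, with a median log2 fold change of −0.57 (7 lower without the libraries numbered 1 and 5). These pathways raise chaperones when proteins misfold and, through the factor ATF4, raise amino acid synthesis genes when amino acids run short. Psat1, the aminotransferase of serine synthesis (chromosome 19, 15904678 to 15947337), was at 225, 241 and 273 CPM in complete media + IgG and at 91.9, 116 and 128 CPM with Wnt5a + anti-Ptk7. The conditions did not overlap, and Psat1 fell by 1.13 on the log2 scale (SE 0.09, adjusted p = 4.11e-12). Sdf2l1, a chaperone cofactor of the endoplasmic reticulum, was at 107, 129 and 157 CPM and 44.1, 54.5 and 62.2 CPM (log2 −1.26 ± 0.10). Asns, asparagine synthetase and a standard ATF4 target, was at 365, 382 and 414 CPM and 207, 217 and 224 CPM (log2 −0.83 ± 0.07), again without overlap. Chac1 (−0.96 ± 0.19) and Trib3 (−0.90 ± 0.15), both targets of the stress response, fell, as did the protein disulfide isomerase Pdia6 (−0.66 ± 0.07) and the secreted factor Manf (−0.63 ± 0.08). Atf4 itself was at 233, 280.5 and 309 CPM and 158, 193 and 219.6 CPM, a log2 difference of −0.54 ± 0.10 that passed the p threshold but not the fold threshold (it was called without complete media replicate 2, at −0.60), and so did Hspa5 (−0.41 ± 0.06), the main chaperone of the compartment. Ddit3 (CHOP), the factor of the terminal stress response, did not pass (0.23 ± 0.16).

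**Figure D3:**
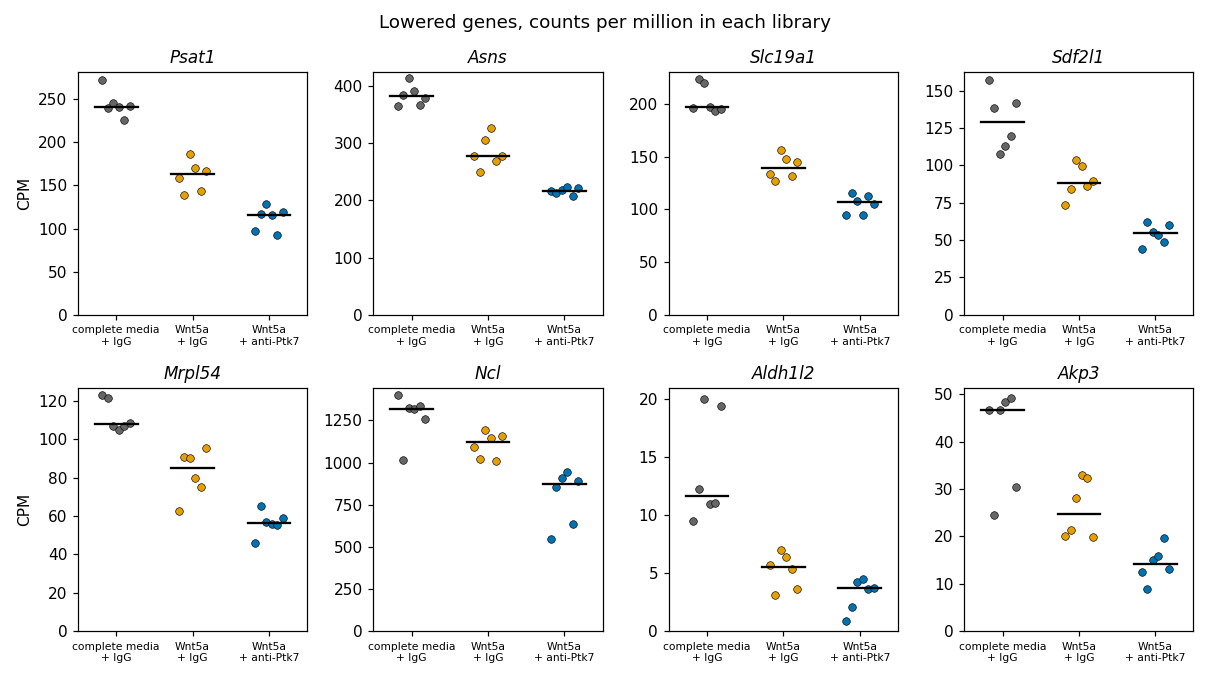
Level in CPM on a linear axis from 0 for 8 lowered genes in the 6 libraries each of complete media + IgG (grey), Wnt5a + IgG (orange) and Wnt5a + anti-Ptk7 (blue), with each point a library and the bar the median of its condition. Control and treated libraries do not overlap for any of the 8, and for Asns the medians were 382, 277 and 217 CPM in that order.

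Enzymes that make serine and glycine and pass their carbon to folate, a list chosen after values were seen, were lower in 12 of 28 and higher in 2. The drop covered the serine pathway from Phgdh (−0.84 ± 0.11) through Psat1 to Psph (−1.01 ± 0.11), the serine hydroxymethyltransferases Shmt1 (−0.68 ± 0.11) and Shmt2 (−0.82 ± 0.10), and the mitochondrial folate enzyme Mthfd2 (−0.74 ± 0.11). The folate carrier Slc19a1 was at 193, 197 and 224 CPM and 94.5, 107 and 115 CPM (log2 −0.96 ± 0.09). Aldh1l2, a mitochondrial folate dehydrogenase, fell furthest, from 9.5, 11.6 and 20 CPM to 0.902, 3.68 and 4.52 CPM (log2 −2.11 ± 0.38). Cth, which makes cysteine, fell by 1.27 and Gcat, which breaks down threonine to glycine, by 0.94. One of the 2 that rose was Gldc (3.39 ± 0.47), part of the complex that cleaves glycine. Without the libraries numbered 1 and 5, 12 of 28 of the serine, glycine and one-carbon enzymes were lower and 1 higher. Of 23 amino acid supply genes, also chosen after values were seen, 9 were lower and 1 higher, among the lower ones the leucine transporter gene Slc7a5 (−1.05 ± 0.11), the proline enzyme gene Pycr1 (−0.94 ± 0.15) and Pck2 (−1.17 ± 0.12), which makes phosphoenolpyruvate in mitochondria.

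ATF4 with a C/EBP partner binds amino acid response letters written TGATGNAA, and ATF6 with NF-Y binds the longer ER stress response letters, CCAAT and CCACG with 9 bases of any kind between them, and both were searched on both strands of the same 250 bases. TGATGNAA occurred in 2.38% of the 10482 promoters, in 3.01% of the 399 matched lowered genes in 5 of the 16 matched promoters of the amino acid supply genes, and in 3 of the 6 among them whose genes were called. It occurred in none of the 23 matched promoters of the serine, glycine and one-carbon enzymes. The longer letters occurred in 16 promoters in all (0.153%), in 2 of the 399 matched lowered genes and in none of the 1159 matched raised genes. The lowered genes among them were Hsp90b1 and Pdia6, both of the unfolded protein and integrated stress list, in which 5 of 20 matched promoters held these letters and 2 of the 9 whose genes were called. Hsp90b1, a chaperone of the compartment, was at 792, 929 and 1104 CPM and 443, 658 and 737 CPM (log2 −0.60 ± 0.10), and its call was lost without complete media replicate 3 or without Wnt5a + anti-Ptk7 replicate 1 or 5. The promoters with a match among the called genes of the amino acid supply and the unfolded protein and integrated stress lists are shown in the same way, with the match in capitals, on GRCm38.p6: Asns (chr6:7693210-7693459, minus strand), Pck2 (chr14:55540016-55540265, plus strand), Chac1 (chr2:119350992-119351241, plus strand), Pycr1 (chr11:120643749-120643998, minus strand), Hsp90b1 (chr10:86705445-86705694, minus strand) and Pdia6 (chr12:17266339-17266588, plus strand).
Asns: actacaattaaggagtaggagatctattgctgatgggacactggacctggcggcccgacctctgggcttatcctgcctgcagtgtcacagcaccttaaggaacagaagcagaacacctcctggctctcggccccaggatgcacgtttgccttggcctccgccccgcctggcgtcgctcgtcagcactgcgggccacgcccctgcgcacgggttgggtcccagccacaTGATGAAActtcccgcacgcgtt
Pck2: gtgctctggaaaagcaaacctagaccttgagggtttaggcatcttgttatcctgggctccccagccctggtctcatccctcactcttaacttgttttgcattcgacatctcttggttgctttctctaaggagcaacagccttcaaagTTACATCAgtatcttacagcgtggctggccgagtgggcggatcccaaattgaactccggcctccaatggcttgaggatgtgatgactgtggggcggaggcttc
Chac1: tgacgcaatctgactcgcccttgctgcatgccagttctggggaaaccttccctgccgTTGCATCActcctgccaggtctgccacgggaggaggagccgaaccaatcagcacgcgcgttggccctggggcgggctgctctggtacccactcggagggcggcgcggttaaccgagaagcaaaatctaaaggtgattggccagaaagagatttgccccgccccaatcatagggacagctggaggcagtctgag
Pycr1: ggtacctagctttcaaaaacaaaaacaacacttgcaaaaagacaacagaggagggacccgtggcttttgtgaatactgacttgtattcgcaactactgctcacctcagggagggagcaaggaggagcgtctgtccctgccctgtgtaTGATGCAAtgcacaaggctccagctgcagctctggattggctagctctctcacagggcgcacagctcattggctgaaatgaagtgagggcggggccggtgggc
Hsp90b1: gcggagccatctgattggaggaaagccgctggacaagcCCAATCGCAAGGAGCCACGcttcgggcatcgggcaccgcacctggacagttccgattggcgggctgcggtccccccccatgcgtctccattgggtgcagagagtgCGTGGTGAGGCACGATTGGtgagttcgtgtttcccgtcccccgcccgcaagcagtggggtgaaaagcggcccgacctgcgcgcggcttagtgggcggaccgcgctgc
Pdia6: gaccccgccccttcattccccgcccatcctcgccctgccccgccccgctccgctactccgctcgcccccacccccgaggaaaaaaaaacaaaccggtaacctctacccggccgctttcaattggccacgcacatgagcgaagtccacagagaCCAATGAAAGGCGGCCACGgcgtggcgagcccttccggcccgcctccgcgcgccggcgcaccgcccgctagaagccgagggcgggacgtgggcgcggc
The match lay 23 bases before the start in Asns, 103 in Pycr1 and 98 in Pdia6, in the direction of the gene. On the opposite strand it lay 103 bases before the start in Pck2 and 193 in Chac1. Hsp90b1 had 2 matches, 212 bases before its start in the direction of the gene and 107 on the opposite strand. A match is a description of the letters and not of a bound site.

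Genes that build ribosomes were lowered in part and by small amounts. In the ribosome biogenesis list, chosen after values were seen, 13 of 48 were lower and none higher, with 46 of 48 log2 fold changes below 0 and a median of −0.41, and 5 were lower without the libraries numbered 1 and 5. Ncl, which encodes the nucleolar protein nucleolin, was at 1015, 1320.4 and 1399 CPM and 544, 873 and 946 CPM (log2 −0.68 ± 0.10), and Npm1 (−0.83 ± 0.19) and Nhp2 (−0.71 ± 0.09), also nucleolar, fell with it. Fbl, the methyltransferase of ribosomal RNA, did not pass (−0.35 ± 0.18). Of 73 tested cytosolic ribosomal proteins 27 were lower and none higher, 70 of 73 lay below 0, and the summed level had a median of 5231 CPM in the controls and 3713 CPM in the treated libraries. Without the libraries numbered 1 and 5, 10 of 72 cytosolic ribosomal proteins were lower. Ribosomal protein genes share sequence with many processed pseudogenes, so their single values, such as Rpl13a (−0.95 ± 0.13) and Rplp0 (−0.77 ± 0.11), are uncertain. Mitochondrial ribosomal proteins were lower in 6 of 77 (7.79%), beside 3.96% of all genes tested. The count was 14 without Wnt5a + anti-Ptk7 replicate 2, and 10 without complete media replicate 3 or 4. The furthest of those named was Mrpl54 at 105, 108 and 123 CPM and 46, 56.4 and 65.3 CPM (log2 −0.99 ± 0.09). Mitochondrial chaperones and proteases, chosen after values were seen like the ribosomal families, were lower in 8 of 24 (4 without Wnt5a + anti-Ptk7 replicate 1), with the protease Lonp1 (−0.69 ± 0.09) and the import pore Tomm40 (−0.63 ± 0.07) among them.

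Cell cycle genes lay mostly below 0. None of 20 S phase genes was called in either direction, while 19 of the 20 had log2 fold changes below 0, with a median of −0.33. Their summed level was 3115 to 3221 CPM in the controls and 2196 to 2779 CPM in the treated libraries, without overlap. The G2 and M phase genes summed to 3790 to 4186 and 2201 to 3445 CPM, also without overlap, and 6 of 20 G2 and M phase genes were lower, such as the mitotic kinase gene Cdk1 (−0.66 ± 0.08) and Cdc20 (−0.67 ± 0.09), whose product activates the ligase of mitotic exit. The count for G2 and M phase was 3 without Wnt5a + anti-Ptk7 replicate 1 and 1 without the libraries numbered 1 and 5. Mki67, the usual proliferation marker, did not pass (−0.14 ± 0.11). Replication-dependent histones, a family chosen after values were seen, were lower in 10 of 24 and higher in 2, with the linker histones Hist1h1b (−1.34 ± 0.35) and Hist1h1c (1.08 ± 0.23) on opposite sides. Their transcripts lack poly(A) tails and share sequence between copies, so these values are uncertain.

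Lists of absorptive, Paneth, goblet and enteroendocrine genes had members on both sides, and their counts are read against the 10.5% of all genes called higher and the 3.96% called lower. Brush border enzymes were lower in 5 of 21 and higher in 3, and their summed level had a median of 2956 CPM in the controls and 3402 CPM in the treated libraries. The higher ones were the microvillar motor gene Myo1a (0.83 ± 0.10) and the cadherin genes Cdhr2 (0.79 ± 0.16) and Cdhr5 (0.78 ± 0.14), whose products link microvilli, of which Cdhr2 lost its call without Wnt5a + anti-Ptk7 replicate 1 (0.56). Anpep, the aminopeptidase N of the brush border, was at 112, 118 and 147 CPM in complete media + IgG and at 16.8, 49.4 and 65.5 CPM with Wnt5a + anti-Ptk7 (log2 −1.41 ± 0.25), Ace fell by 1.08 and Ggt1 by 1.04, while the sucrase gene Sis did not pass (−0.32 ± 0.25). Akp3, an intestinal alkaline phosphatase with close relatives, was at 24.6, 46.6 and 49.3 CPM and 8.98, 14.1 and 19.6 CPM. Of 27 nutrient transporters 4 were lower and 3 higher. Slc13a2, which takes up citrate and other dicarboxylates, fell from 9.16, 14.4 and 17.1 CPM to 1.26, 2.81 and 5.46 CPM (log2 −2.18 ± 0.47), and the zinc transporter Slc39a5 fell by 1.23. In lipid handling 8 of 23 were higher and 2 lower. The lipid droplet gene Plin2 (1.40 ± 0.18) and the lipoprotein gene Apob (1.35 ± 0.19) rose. Of the secretory lineage, the Paneth cell lysozyme Lyz1, which has a close copy in Lyz2, went from 485, 550.1 and 616 CPM to 209, 299.6 and 337 CPM (log2 −0.98 ± 0.12), without overlap, and 3 of 12 Paneth genes were lower and 2 higher. Neurog3, the factor that starts enteroendocrine differentiation, went from 15.2, 22 and 24.4 CPM to 7.31, 10.3 and 13.4 CPM (log2 −1.05 ± 0.20). The enteroendocrine list as a whole had 3 of 24 lower and 2 higher, and the shares higher in it, in the nutrient transporters and in the stem cell list lay near that of all genes, while the enzyme gene Cpe, which matures peptide hormones, rose by 2.77 ± 0.39. The goblet list had 3 of 13 higher and 2 lower, with the secretion gene Sytl2 at 1.57 ± 0.27 and the mucin folding gene Agr2 at −0.82 ± 0.17. In the stem cell list, Smoc2 fell by 0.70, 2 of 14 were higher, and of 19 intestinal transcription factors 2 were higher and 0 lower, with Cdx2 at −0.20 ± 0.19.

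The same genes were then looked at in comparisons that share no library with the main one. Those libraries did enter the filter, the scaling and the shared estimate of spread behind the calls. They are therefore not fully independent of the choice of genes. Wnt5a + IgG against QCM + IgG gives the ligand without the antibody, although the medium differs as well, in 12 other libraries, with 960 genes higher (6.19%) and 488 lower (3.15%), or 9.34% of genes. QCM + IgG itself differed from complete media + IgG in 58 genes (0.374%), 55 higher and 3 lower (0.0194%). Of the 1630 raised genes, 748 were higher there (45.9%, 95% Wilson interval 43.5% to 48.3%), which is 77.9% of the 960, and 1 was lower. Their median log2 fold change there was 0.69, against 0.0084 for all genes, and 1515 of 1630 lay above 0. Of the 613 lowered genes, 161 were lower there (26.3%, interval 22.9% to 29.9%), 33% of the 488, and none was higher, with 568 of 613 below 0 and a median of −0.45. Leaving out Wnt5a + IgG replicate 1 brought the second share to 16.1% and the first to 34.2%, and without the libraries numbered 1 and 5 they were 15.7% and 42.4%. The intervals cover counting over genes only, and genes are not independent replicates. Across all 15497 genes the log2 fold changes of the 2 comparisons had a Pearson r of 0.673 and a Spearman rho of 0.612, as a description across genes.

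**Figure D4:**
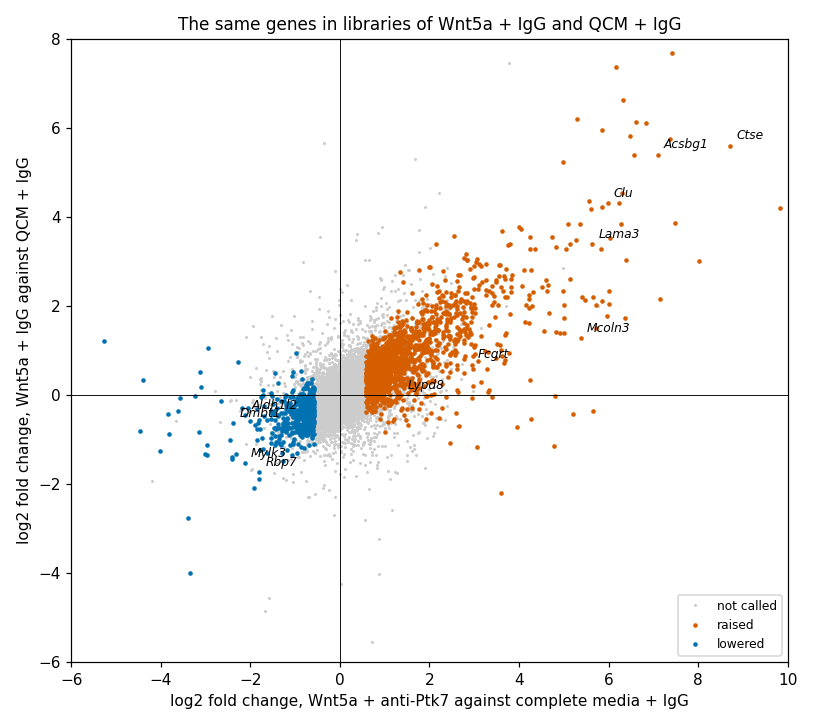
Each point is a gene, with its log2 fold change for Wnt5a + anti-Ptk7 against complete media + IgG on the horizontal axis and for Wnt5a + IgG against QCM + IgG, which shares no library with it, on the vertical axis. Raised genes are orange, lowered genes blue and other genes grey, and 1515 of 1630 raised genes lie above 0 on the vertical axis.

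The gene groups were counted in Wnt5a + IgG against QCM + IgG and, side by side, in Wnt5a + IgG against complete media + IgG, which shares the control libraries of the main comparison. The fetal and revival genes were higher in 15 of 19 against QCM and 17 of 19 against complete media, the YAP/TAZ targets in 13 of 18 against either, the laminins and integrins in 13 and 14 of 19 and the gastric-type genes in 7 and 6 of 7. Clu had a log2 fold change of 4.30 against QCM and 6.21 against complete media, and Lamb3 of 1.35 and 1.56. The counts of the lowered groups changed with the reference. The unfolded protein and integrated stress list had 1 of 21 lower against QCM and 3 against complete media, the amino acid supply list none and 6 of 23, and the serine, glycine and one-carbon enzymes 2 and 6 of 28, beside 10, 9 and 12 in the main comparison. Psat1 was at −0.35 against QCM and fell by 0.60 against complete media, beside −1.13 in the main comparison, and it was at −0.25 in QCM + IgG against complete media + IgG. Asns had log2 fold changes of −0.15, −0.43, −0.83 and −0.28 in the same order, and Slc7a5 of −0.04, −0.33, −1.05 and −0.30. Cytosolic ribosomal proteins were lower in 23 of 73 against QCM and in 2 against complete media, and complex I subunits in 18 and 0 of 36, beside 27 and 2 in the main comparison. Differences in counts, and those to the values against QCM, were not tested. For a single gene, the main comparison and Wnt5a + IgG against complete media differ by Wnt5a + anti-Ptk7 against Wnt5a + IgG. In that quasi-likelihood test Psat1 was at −0.53 (adjusted p = 0.000406) and Asns at −0.39 (adjusted p = 0.00121). Both missed the fold threshold. The unfolded protein and integrated stress list had 2 of 21 lower there, and the amino acid supply list 1 of 23. Among the lowered genes that also fell against QCM were Rbp7 (−1.80 in the main comparison and −1.73), a retinol binding protein gene, and Mylk3 (−2.13 and −1.54), a myosin kinase gene. Lypd8 was at −0.01 against QCM, but rose by 0.79 against complete media, beside 1.37 in the main comparison, and QCM + IgG itself had it higher by 0.80. Irf1, the gene of an interferon-responsive factor, was at −0.12 against QCM, rose by 0.96 against complete media, beside 1.64, and was higher by 1.08 in QCM + IgG.

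SCM + anti-Ptk7 against SCM + IgG gives the antibody in another medium, again in 12 other libraries, with 90 genes higher (0.581%) and 100 lower (0.645%), 1.23% of genes in all. Of the 613 lowered genes, 25 were lower there (4.08%, Wilson interval 2.78% to 5.95%), which is 25% of the 100, and 1 was higher, the arginine transporter gene Slc7a3. Their median log2 fold change there was −0.19, and 464 of 613 lay below 0. Without SCM + IgG replicate 1, which stood apart on the second principal component, the share was 2.61%. Of the 1630 raised genes, 37 were higher there (2.27%), or 41.1% of the 90, and 15 were lower (0.920%), or 15% of the 100, with a median of 0.0067. The last share moved with single libraries, to 0.543% without SCM + IgG replicate 1, 0.491% without SCM + IgG replicate 6, 0.481% and 0.539% without SCM + anti-Ptk7 replicates 2 and 3, 0.525% without complete media replicate 2 and 1.88% without SCM + anti-Ptk7 replicate 1. It was 4.14% without the libraries numbered 1 and 5 and 5.94% with the replicate number as a block, both above the 2.27% raised there with all libraries and no block, so no order is drawn between the shares raised and lowered by the antibody. Across the 15497 genes Pearson's r was 0.111 and Spearman's rho 0.166.

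Genes that were lowered in both included Ly6c1, a surface protein gene with a near-identical neighbour, Ly6c2, which makes its counts uncertain. It was at 1.79, 2.58 and 6.87 CPM in complete media + IgG and at 0, 0.149 and 0.361 CPM with Wnt5a + anti-Ptk7, without overlap (log2 −4.39 ± 0.66), and had log2 fold changes of −4.16 with the antibody in SCM, −4.42 against Wnt5a + IgG and 0.32 in Wnt5a + IgG against QCM + IgG. Dmbt1, a secreted scavenger protein of mucosal defense, was at 7.99, 12.1 and 28.2 CPM and 0.563, 3.2 and 4.84 CPM (log2 −2.38 ± 0.48), with −2.78 in SCM and −0.63 in Wnt5a + IgG against QCM + IgG. Cryab, a small heat shock protein gene, had −3.10, −2.95 and 0.19 in the same order, and Sdf2l1 had −1.26, −0.75 and −0.41. None of Ly6c1, Dmbt1, Cryab and Sdf2l1 was called in Wnt5a + IgG against QCM + IgG. Sdf2l1 passed the p threshold of the quasi-likelihood test there (adjusted p = 0.00231) but not the fold threshold. The difference between the comparisons was not tested.

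**Figure D5:**
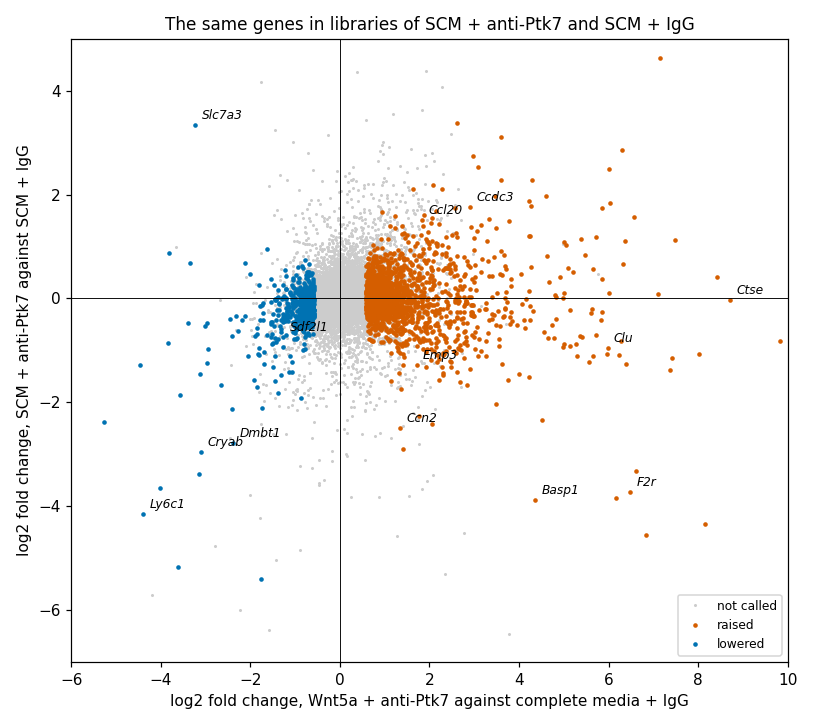
Each point is a gene, with its log2 fold change for Wnt5a + anti-Ptk7 against complete media + IgG on the horizontal axis and for SCM + anti-Ptk7 against SCM + IgG, which shares no library with it, on the vertical axis. Raised genes are orange, lowered genes blue and other genes grey, and raised genes lie on both sides of 0 on the vertical axis (824 above and 806 below).

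Genes raised in both included Ccl20, the chemokine that draws immune cells to lymphoid follicles, at 3.34, 6.87 and 13.1 CPM and 17.1, 28.2 and 34.3 CPM (log2 1.83 ± 0.28), which rose by 1.51 in SCM with the antibody and was at 0.54 in Wnt5a + IgG against QCM + IgG. Ccdc3, which encodes a secreted protein, was at 0.659, 2.35 and 5.08 CPM and 13, 18.5 and 24 CPM and rose in all of them (2.90 in the main comparison, 1.76 with the antibody in SCM and 1.38 in Wnt5a + IgG against QCM + IgG). The B cell survival factor gene Tnfsf13b (2.04 and 1.46) and the pantetheinase gene Vnn1 (1.38 and 1.39) were raised in both as well, as were 3 genes of the class that were chosen after their values were seen, the NF-κB inhibitors Nfkbia (0.72 and 0.68) and Nfkbiz (0.81 and 0.76) and the deiodinase gene Dio1 (2.61 and 1.19).

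The 15 genes that were raised here and lowered by the antibody in SCM included Ccn2, Emp3 and F2r. Emp3, a membrane protein gene, was at 3.59, 5.3 and 7.2 CPM and 11.2, 14.5 and 33.8 CPM (log2 1.72 ± 0.30) and changed by −1.29 in SCM with the antibody and by 1.61 in Wnt5a + IgG against QCM + IgG. F2r, the gene of the thrombin receptor, had counts in 1 of 6 control libraries, at 0.234 CPM, and was at 1.27, 3.53 and 12.2 CPM with Wnt5a + anti-Ptk7, with −3.72 in SCM with the antibody. Ccn2 changed by −2.50 in SCM with the antibody and by 2.75 in Wnt5a + IgG against QCM + IgG, and it rose by 3.21 with Wnt5a + IgG against complete media, beside 1.35 with Wnt5a + anti-Ptk7. Ccn1, the other member of its family described above, had log2 fold changes of −0.81 (adjusted p = 0.102) with the antibody in SCM and −0.19 against Wnt5a + IgG, neither of which was called.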

How the data were processed

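RNA of 36 organoid cultures, 6 of each of 6 conditions, was sequenced from Smart-Seq V4 and Nextera XT libraries after 2 days in the conditions. Per the study's methods, the authors aligned reads to mm10 with GSNAP, counted those within coding sequences and deposited raw counts per gene, 1 file a library. The annotation version and the strand setting are not given in the sources used here, so overlapping and antisense genes cannot be separated. The series matrix held the same counts and was not used. The 36 libraries held 9581589 to 21029769 counts, which limits precision for genes with few counts, and no pair of replicates was a duplicate.

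Genes were filtered with filterByExpr, libraries scaled by TMM, and the 6 condition means fitted without a block to all 36 libraries with the quasi-likelihood test of edgeR 4.0.16 (R 4.3.3), with Benjamini-Hochberg adjustment over 15497 genes and a call at an adjusted p of 0.05 and 1.5-fold. Levels are TMM-scaled CPM. A gene could pass the filter through a single condition, so the shares of tested list members depend on the filter in part. A library pair of conditions does not overlap where the lowest of one lies above the highest of the other. The fit was tested on simulated counts. Alternatives used limma 3.58.1, DESeq2 1.42.0, other scalings, filters, thresholds and sets of libraries. Shares carry 95% Wilson intervals, which cover counting error only.

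Named genes were Ptk7 and Wnt5a, the 15 raised and 15 lowered genes with the largest changes and no overlap (mean log2 CPM over 1), the 5 of each with the smallest p, up to 8 of each class defined by a second comparison, and examples from the gene lists. The conditions compared and all gene lists were chosen with earlier results of these data known, so list counts are descriptions and carry no test of their own.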

Additional observations from a re-analysis of the deposited data

Results flagged for a closer look

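Library by library levels of the genes described above were screened in 86 groups of 6 libraries, and 7 held 1 library whose gap to the nearest other exceeded Dixon's 95% critical value of 0.625 of the group's range on the log2 CPM scale. Chance gives about 1 in 20 such groups. With Wnt5a + anti-Ptk7, replicate 1 had Ly6a at 129 CPM against 64.8 to 76.4 CPM in the others. Mcoln3, a lysosomal calcium channel gene among the 15 largest rises, was at 20.8 CPM in replicate 5 against 10.3 to 13 CPM, and Dmbt1 was at 0.563 CPM in replicate 6 against 2.26 to 4.84 CPM. In complete media + IgG, replicate 6 had Ly6c1 at 6.87 CPM against 1.79 to 2.93 CPM and Neurog3 at 15.2 CPM against 21.1 to 24.4 CPM. Ncl was at 1015 CPM in complete media replicate 2 against 1260 to 1399 CPM, and F2r had counts in complete media replicate 5, at 0.234 CPM, and in no other control library. Mcoln3, Dmbt1, Ly6c1, Neurog3, Ncl and F2r kept their calls when that library was left out. Ly6a, which was not called, passed without replicate 1 of Wnt5a + anti-Ptk7 (log2 fold change −0.87, adjusted p = 0.0291) and also without complete media replicate 3 (−0.84, adjusted p = 0.0257). What sets these libraries apart was not tested.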

How the results depend on the processing

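None of the 238 named genes changed direction under any alternative, and of their 6100 values 5659 stayed on the same side of the threshold, 422 no longer passed and 19 newly passed. The replicate numbers were not taken to pair the libraries, since 2 of 6 same-numbered pairs of the main comparison correlated above 0.1 (0.267, 0.119, 0.0776, 0.0481, 0.0464 and 0.013) and 2 of 6 treated libraries correlated best with their own number, although the mean was 0.0952 for the same number and −0.0197 for different numbers, and the libraries numbered 1 and 5 stood apart in every condition. With the number as a replicate block the counts were 1667 raised and 660 lowered genes. Counts of raised and lowered genes were 2574 and 2288 with no fold threshold, 933 and 151 over 2-fold, 608 and 88 with glmTreat for a change over 1.5-fold, and 1229 and 1120 with quantile normalization, and they ranged from 1221 to 1752 and from 479 to 733 when each library was left out. DESeq2 (1705 and 631), voom with TMM (1555 and 620), upper quartile scaling (1568 and 680), library size alone (1527 and 695), no filter (1549 and 701), a minimum of 10 counts (1267 and 490) and the libraries of the 2 conditions alone (1580 and 609, or 1611 and 644 with the block) moved them less. Without the libraries numbered 1 and 5, a setting chosen after seeing the data, they were 1111 and 421.

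The share of raised genes also raised in Wnt5a + IgG against QCM + IgG was 43.25% with no filter, 23.52% with glmTreat and 42.39% without the libraries numbered 1 and 5, and 34.17% to 51.64% with 1 library left out. The share of lowered genes also lowered in Wnt5a + IgG against QCM + IgG was 50.35% with no fold threshold, 13.91% over 2-fold, 1.136% with glmTreat and 15.68% without the libraries numbered 1 and 5, and 16.13% to 28.39% with 1 library left out. The share of raised genes lowered by the antibody in SCM was 1.525% with DESeq2, 5.939% with the replicate block, 0.3165% with the libraries of the 2 conditions, 4.221% with these and the block, 0.1645% with glmTreat and 4.14% without the libraries numbered 1 and 5, and 0.4813% to 1.882% with 1 library left out. The share of lowered genes lowered by the antibody in SCM was 2.71% with no filter, 1.97% with the libraries of the 2 conditions, 2.329% with these and the block and 8.609% over 2-fold, and 2.607% to 5.428% with 1 library left out. The cause of these movements was not tested. Of the 223 named genes that were called, 106 lost the call under glmTreat, 71 over 2-fold, 51 without the libraries numbered 1 and 5, 33 without Wnt5a + anti-Ptk7 replicate 1, 19 with quantile normalization, 13 with voom and TMM scaling, 6 with the replicate block and 2 with DESeq2, and 40 when some library was left out. With quantile normalization the squamous and stratified genes had 4 members higher in place of 7, and interferon and antigen presentation 3 in place of 6.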

Other observations

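The counts of other gene groups are to be read against the 10.5% of all genes called higher and the 3.96% called lower. Interferon and antigen presentation genes were higher in 6 of 19, tight junction genes in 6 of 17 and glycolysis and hypoxia genes in 3 of 23, with none lower in any of these lists. The circadian clock and output list had 3 of 19 higher and 3 lower, xenobiotic metabolism 2 of 28 higher and 2 lower, and cholesterol and fatty acid synthesis 2 of 24 lower and none higher. Single genes with wide separation included Duox2, which makes hydrogen peroxide at the mucosal surface, at 0.209, 1.28 and 3.03 CPM in complete media + IgG and 7.53, 11.5 and 14.6 CPM with Wnt5a + anti-Ptk7, the purinergic channel gene P2rx2 at 0.658, 1.13 and 2.92 CPM and 33.1, 51.8 and 150.2 CPM, and the aldehyde dehydrogenase gene Aldh1a3, which makes retinoic acid, at 0, 0.551 and 3.34 CPM and 14.3, 24.5 and 98.2 CPM (lowest, median and highest library). Among lowered genes, Nts, the gene of the gut peptide neurotensin, was at 3.67, 7.17 and 10.5 CPM and 0.411, 2.56 and 4.82 CPM, and Gm12888, named only by its annotation, at 11.9, 20.4 and 26.4 CPM and 0.636, 1.91 and 6.38 CPM.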
